A study of Mus musculus with 6 samples.

Results

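The genes described here are 7 S100 genes, S100a1, S100a4, S100a6, S100a10, S100a11, S100a13 and S100a16, together with Anxa2, the gene for annexin A2. They were taken by symbol, 8 of the 19938 genes that had a probe set with a single gene symbol, and where a gene had several probe sets the one with the highest mean was used. The members were chosen by symbol with results of these arrays known, and the values behind the choice were log2 differences: S100a1 had been seen among the largest increases with Tamoxifen, and S100a10 among the genes farthest above the other leukemias in line 14846. Values of the 8 genes in those comparisons are therefore descriptions, and calls made for them support nothing further.

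The study set out to delete the zinc finger transcription factor gene Zfx in mouse T cell acute lymphoblastic leukemia (T-ALL). Cells of 3 independent leukemias, lines 14843, 14844 and 14846, had been made by retroviral transfer of Notch-IC, the active intracellular part of Notch, into blood progenitors that carried a Cre-ER transgene and the loxP-flanked allele Zfx fl/y. The Tamoxifen group held 3 arrays, labelled ZFX null, from recipients given 5 mg of tamoxifen a day by gavage for 3 days, beginning 10 days after transplant. The Vehicle group held 3 arrays, labelled ZFX flox, from recipients of the same leukemias given vehicle. Both groups carried Notch-IC, Cre-ER and the floxed allele, all recipients were sublethally irradiated mice, and the leukemia cells, sorted by GFP, were collected at 48 h from the final dose. Each line is a single leukemia with 1 array per treatment, and no group received tamoxifen without Cre-ER or without the floxed allele, so the drug, Cre activity and loss of Zfx cannot be told apart.

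S100 proteins are small calcium-binding proteins with a pair of EF-hands that mostly work as dimers, changing shape when they bind calcium and then gripping a target protein. S100A10 is the exception that no longer binds calcium, and it forms a heterotetramer with annexin A2, a protein that binds membranes in the presence of calcium. That complex links the inner face of the plasma membrane to actin and to the large scaffold protein AHNAK, and at the cell surface it binds plasminogen. In mouse most S100a genes lie in a cluster on chromosome 3. In T cells, S100a4, S100a6, S100a10 and Anxa2 are commonly expressed together in effector, memory and migratory cells.

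The 8 genes did not move as a group. S100a1 was higher in Tamoxifen arrays of each line, and S100a13, its neighbour, was higher by a smaller amount. Anxa2 was lower in Tamoxifen arrays of each line. S100a10 and S100a11 differed mainly between leukemias, with line 14846 far above the others under both treatments. S100a4, S100a6 and S100a16 stayed within narrow ranges, where S100a4 and S100a6 were dim and S100a16 was not much brighter.

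**Figure D1:**
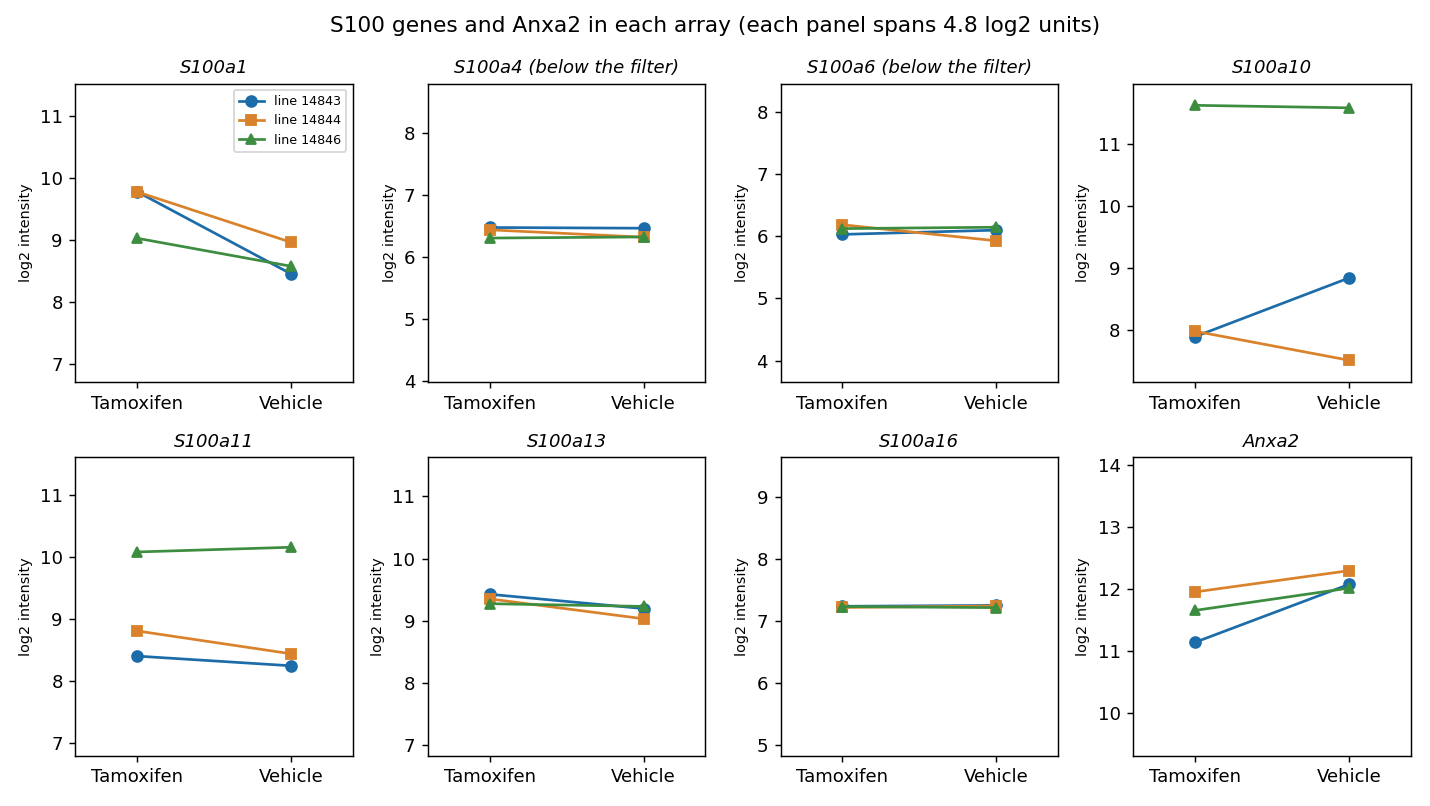
Log2 intensity (vertical axis, the same span in every panel) of the 8 genes in the 6 arrays, Tamoxifen on the left and Vehicle on the right of each panel, with a line joining the 2 arrays of a leukemia. S100a10 and S100a11 are set apart by line 14846, at 11.62 and 11.57 for S100a10, while S100a1 is higher and Anxa2 lower on the Tamoxifen side in all 3 lines.

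The targeted gene gave no check of the labels. The Zfx probe set was at 10.96, 10.98 and 10.86 log2 intensity in Tamoxifen arrays of lines 14843, 14844 and 14846, and at 10.98, 10.90 and 10.72 in the matching Vehicle arrays. Tamoxifen exceeded Vehicle by 0.07 ± 0.06 (SE), and the adjusted p from limma was 0.48. Whether the probes lie in the deleted part is not given in the sources used here, so groups are named as labelled. RMA intensities had medians from 201.6 to 208.3 over the 6 arrays. RMA itself makes arrays alike, so these medians do not show whether arrays differed in overall signal. Of the 8 genes, 6 passed the filter on dim genes, a mean log2 intensity of at least 6.70. Among 13956 genes tested with line as a block, 182 were higher with Tamoxifen, 1.3% of those tested, and 688 were lower, 4.93%. After arrays were centred on the median of the tested genes the split was 412 higher and 562 lower. Lines differed for 434 genes, 3.11%, and the groups did not overlap for 23.7% of tested genes. Of the 6 tested S100 and annexin genes, limma called 1 higher and 0 lower with Tamoxifen, where 2 and 1 had an unadjusted p under 0.05, 2 were called between lines, 3 having an unadjusted p under 0.05, and 3 had groups that did not overlap. Over all tested genes an unadjusted p under 0.05 was seen for 10.5% as higher and 13.3% as lower between treatments and for 19.3% between lines, the shares to read such counts against. The members' median difference between treatments was 0.07, against 0.03 over all genes tested. In sorted bulk RNA, fewer cells that express a gene and less RNA per cell cannot be told apart.

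S100a1 encodes a calcium sensor best known from heart and skeletal muscle, where it acts on the calcium release channel and the calcium pump of the sarcoplasmic reticulum. It was at 9.78, 9.78 and 9.03 log2 intensity in Tamoxifen arrays of lines 14843, 14844 and 14846, and at 8.46, 8.96 and 8.58 in the matching Vehicle arrays. Every Tamoxifen array was above every Vehicle array, although the Tamoxifen array of line 14846 exceeded the highest Vehicle array by little. The group means were 9.53 ± 0.43 with Tamoxifen and 8.67 ± 0.27 with Vehicle (SD, n = 3 each). The difference, 0.86 ± 0.16 (SE) on the log2 scale or 1.82-fold, was made of 1.32 in line 14843, 0.81 in line 14844 and 0.45 in line 14846. The spread of these differences among the leukemias was thus about as wide as their mean. S100a1 was the single member called changed, a call known when the genes were chosen, and the call was lost without line 14844, without line as a block and without the filter on dim genes.

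S100a13 encodes a protein known for its part in the release of fibroblast growth factor 1 and interleukin 1 alpha, secreted proteins that lack a signal peptide. It was at 9.43, 9.35 and 9.27 log2 intensity in Tamoxifen arrays of lines 14843, 14844 and 14846, and at 9.20, 9.03 and 9.23 in the matching Vehicle arrays. The groups did not overlap, but in line 14846 the arrays were nearly equal. The fitted difference was 0.20 ± 0.07 (SE), from 0.23 in line 14843, 0.32 in line 14844 and 0.04 in line 14846, and it did not pass the threshold over all genes. For S100a13 as for S100a1, line 14846 had the smallest difference of the 3 leukemias.

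S100a1 and S100a13 are neighbours transcribed in opposite directions, and their promoters are shown because the windows of these genes, the pair that were higher with Tamoxifen in every line, share sequence. Promoter sequences are from RefSeq and hold 250 bases before and 50 bases after a start site, and 7 of the 8 genes had an entry, the exception being S100a10. In the printed strands the capitals mark the 204 bases that lie in both windows, so the capitals of S100a13 are the reverse complement of those of S100a1. The listed start sites are 105 bases apart.
S100a1 promoter, GRCm38.p6 chr3:90514281-90514580, minus strand: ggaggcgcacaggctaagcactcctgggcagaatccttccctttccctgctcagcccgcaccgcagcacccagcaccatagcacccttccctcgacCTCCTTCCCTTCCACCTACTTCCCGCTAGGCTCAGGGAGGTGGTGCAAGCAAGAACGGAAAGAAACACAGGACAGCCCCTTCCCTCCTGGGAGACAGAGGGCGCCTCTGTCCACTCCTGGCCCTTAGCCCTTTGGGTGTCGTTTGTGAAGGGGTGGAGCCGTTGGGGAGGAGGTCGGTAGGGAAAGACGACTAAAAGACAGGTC
S100a13 promoter, GRCm38.p6 chr3:90514185-90514484, plus strand: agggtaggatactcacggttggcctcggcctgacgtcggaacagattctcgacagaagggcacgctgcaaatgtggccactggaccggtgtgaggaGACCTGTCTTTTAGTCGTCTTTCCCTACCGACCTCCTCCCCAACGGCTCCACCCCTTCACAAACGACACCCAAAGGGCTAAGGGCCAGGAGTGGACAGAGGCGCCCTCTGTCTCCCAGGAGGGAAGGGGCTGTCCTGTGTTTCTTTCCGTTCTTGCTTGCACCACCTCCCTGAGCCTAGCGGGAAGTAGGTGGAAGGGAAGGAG

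Of 5 motifs searched on both strands, none matched in either of these windows. They were AGGCCT, the core of the motif known for Zfx and held by 10.3% of 32851 promoter windows of the same length, GGGCGG, the GC box, in 35.7%, TATAAA in 13.6%, CCAAT in 37.4% and TGANTCA, the AP-1 motif, in 7.81%. These letters are simply not in the windows, which says nothing of the factors. The motifs were picked after the expression values had been seen.

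The 5 tested genes on the other side of S100a1 in chromosome order, Slc27a3, Ints3, Ilf2, Snapin and Chtop, differed between Tamoxifen and Vehicle by -0.22 to 0.05 on the log2 scale, and limma called 0 of them, 1 having an unadjusted p under 0.05. That gene was Ints3, an Integrator complex subunit, at -0.22 ± 0.05 (SE) with an adjusted p of 0.083, a difference about as large as that of S100a13. On the side of S100a13 the next tested genes were S100a16, S100a5, S100a7a and S100a8, with differences of -0.01 to 0.11, 0 calls and 0 unadjusted p-values under 0.05. The neighbours were looked up after the values of S100a1 had been seen.

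**Figure D2:**
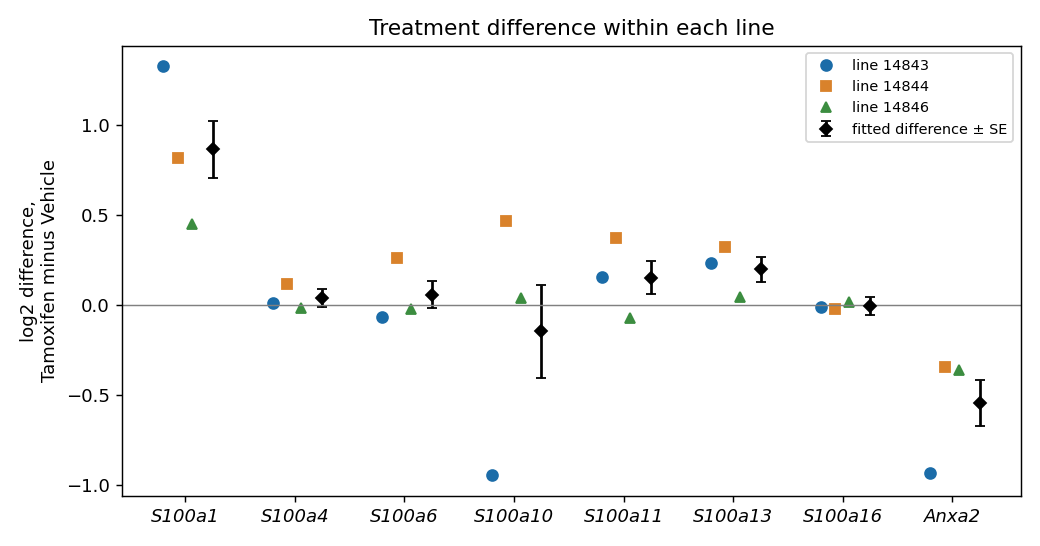
Tamoxifen minus Vehicle difference in log2 intensity (vertical axis) for each of the 8 genes, as 1 coloured point per leukemia line and, in black, the fitted difference with its SE. S100a1 lies above 0 and Anxa2 below 0 in all 3 lines, while the S100a10 points spread from -0.95 to 0.47.

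Anxa2 encodes annexin A2, the partner of S100A10. It was at 11.14, 11.95 and 11.65 log2 intensity in Tamoxifen arrays of lines 14843, 14844 and 14846, and at 12.07, 12.29 and 12.01 in the matching Vehicle arrays. All Tamoxifen arrays were below all Vehicle arrays, by a narrow margin between line 14844 with Tamoxifen and line 14846 with Vehicle. Group means were 11.58 ± 0.41 with Tamoxifen and 12.12 ± 0.15 with Vehicle (SD, n = 3 each). The difference was -0.55 ± 0.13 (SE), made of -0.93, -0.34 and -0.36 in lines 14843, 14844 and 14846, so line 14843 gave the largest share. It did not pass the threshold over all genes, in the fit used or under any of the other 12 settings. Between leukemias Anxa2 did not follow its partner: the means over both treatments were 11.83 ± 0.25 in line 14846, 12.12 ± 0.24 in line 14844 and 11.60 ± 0.66 in line 14843 (SD, n = 2 each), and line 14846 lay 0.03 ± 0.13 (SE) below the mean of the others.

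S100a10 encodes that partner, also called p11, the calcium-insensitive subunit of the complex with annexin A2. In line 14846 it was at 11.62 log2 intensity with Tamoxifen and 11.57 with Vehicle. In line 14843 the values were 7.89 with Tamoxifen and 8.84 with Vehicle, and in line 14844 they were 7.98 with Tamoxifen and 7.51 with Vehicle. On the linear scale of the deposited table this is 3137 and 3050 in line 14846, against 237.5 and 457.2 in line 14843 and 252.5 and 182.7 in line 14844, Tamoxifen given before Vehicle each time. Line 14846 was thus far above the others under both treatments, and its own arrays were nearly equal. Its mean exceeded that of the other lines by 3.54 ± 0.27 (SE), or 11.6-fold, the value by which S100a10 had been noticed. Lines 14843 and 14844, at 8.36 ± 0.67 and 7.75 ± 0.33 (SD, n = 2 each), were no farther apart than the arrays of line 14843 were from each other.

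Treatment differences of S100a10 had opposite signs in the low lines. Tamoxifen minus Vehicle was -0.95 in line 14843, 0.47 in line 14844 and 0.04 in line 14846, and the fitted difference of -0.15 ± 0.26 (SE) was smaller than its error. Without line 14843 it was 0.25, so that line set its sign. The complex partners S100a10 and Anxa2 therefore shared a lower value with Tamoxifen in line 14843 alone of the 3 lines.

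S100a11 encodes a related S100 protein, known to bind annexin A1. It was at 10.08 log2 intensity with Tamoxifen and 10.15 with Vehicle in line 14846. In line 14843 it was at 8.40 with Tamoxifen and 8.25 with Vehicle, and in line 14844 at 8.81 with Tamoxifen and 8.44 with Vehicle. Line 14846 was again above every array of the other lines, by 1.64 ± 0.10 (SE) over their mean, or 3.12-fold. Treatments differed by 0.15 ± 0.09, with 0.16, 0.37 and -0.08 in lines 14843, 14844 and 14846. The array held a second probe set for S100a11, nearly as bright, which gave 1.73 for line 14846 and 0.05 for treatment. The RefSeq table also lists a pseudogene, S100a11-ps, and whether its transcripts would bind the same probes was not tested. S100a10 and S100a11 were the members called between lines, and those calls were lost only without line 14846, where neither the high line nor its contrast remains.

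The promoter windows of S100a11 and of Anxa2, the members on show here for line 14846 and for the lower value with Tamoxifen, are printed because both hold the AP-1 motif, with the matches to TGANTCA in capitals. S100a11 has 2 matches and Anxa2 has 1. S100a11 also holds AGGCCT from position 175, counted from 1 at the first base printed, and each window has 3 matches to GGGCGG. Anxa2 has a TATAAA at position 234, which S100a11 lacks. Of the windows not printed, S100a4 has a TATAAA at position 220, S100a6 a CCAAT at position 23, and S100a16 has 2 windows, of which 1 holds AGGCCT together with the GC box and the AP-1 motif. A match is a description of letters and no evidence that a factor binds.
S100a11 promoter, GRCm38.p6 chr3:93520246-93520545, plus strand: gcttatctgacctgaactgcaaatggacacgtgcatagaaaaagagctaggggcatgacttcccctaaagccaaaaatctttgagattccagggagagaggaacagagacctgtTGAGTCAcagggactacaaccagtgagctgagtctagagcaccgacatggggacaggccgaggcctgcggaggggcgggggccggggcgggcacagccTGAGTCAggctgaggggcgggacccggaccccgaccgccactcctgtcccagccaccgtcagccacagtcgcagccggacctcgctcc
Anxa2 promoter, GRCm38.p6 chr9:69453433-69453732, plus strand: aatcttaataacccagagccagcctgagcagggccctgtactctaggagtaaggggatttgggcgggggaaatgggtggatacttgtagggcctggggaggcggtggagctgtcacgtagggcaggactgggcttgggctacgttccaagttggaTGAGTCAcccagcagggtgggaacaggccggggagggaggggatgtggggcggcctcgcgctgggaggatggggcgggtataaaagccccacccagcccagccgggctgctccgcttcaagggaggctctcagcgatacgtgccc

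S100a10 and S100a11 lie next to each other among tested genes of chromosome 3, so the genes around them were looked up after their values had been seen. The 4 tested genes beyond S100a11, namely Lce3c, Crnn, Hrnr and Tchhl1, which belong to skin and other stratified epithelia, had line 14846 differences of -0.17 to 0.03. The 5 on the side of S100a10, Tdpoz2, Them4, Lingo4, Tdrkh and Mrpl9, had differences of -0.30 to 0.16. Of these 9, limma called 0 between lines, and 0 had an unadjusted p under 0.05. Lce3c, Crnn, Hrnr and Tdpoz2 had means near the filter of 6.70.

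**Figure D3:**
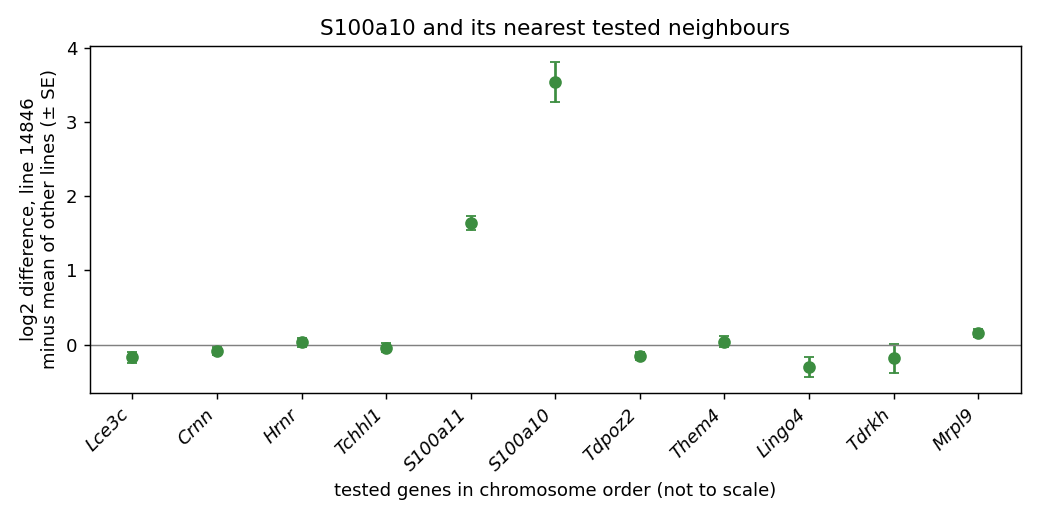
Line 14846 minus the mean of lines 14843 and 14844 in log2 intensity (vertical axis, points with SE) for S100a10, S100a11 and the tested genes around them in chromosome order, without scale. S100a10 at 3.54 and S100a11 at 1.64 stand above neighbours that lie between -0.30 and 0.16.

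S100a4, S100a6 and S100a16 varied little. S100a4, which binds non-muscle myosin and is known from migrating cells, ranged over 6.30 to 6.47 log2 intensity in Tamoxifen arrays and over 6.32 to 6.46 in Vehicle arrays. S100a6, or calcyclin, ranged over 6.03 to 6.19 and over 5.93 to 6.15 in the same order of groups. Both means lay below the filter of 6.70, so these genes were not in the fit used and no difference was detectable at this signal. S100a16, a widely expressed S100 gene, passed the filter at 7.23 ± 0.01 with Tamoxifen and 7.24 ± 0.02 with Vehicle (SD, n = 3 each), and its 6 arrays spanned 0.04 log2 units. Its mean was near the filter of 6.70, so the narrow span does not show that its expression was stable. S100a4 and S100a6 thus stayed dim in line 14846, where S100a10 and S100a11 were high.

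The S100 genes outside these members were examined from a list of 11, of which 6 passed the filter. By limma 0 were called between treatments, 0 had an unadjusted p under 0.05, and their differences lay between 0.01 and 0.11 on the log2 scale, with a median of 0.03. S100a8, a subunit of calprotectin from neutrophils and monocytes, differed between lines by limma's moderated F test, with an adjusted p of 0.0072. It was higher in line 14844, at 8.56 with Tamoxifen and 8.38 with Vehicle, than in line 14843, at 7.33 and 7.32, or line 14846, at 7.53 and 7.63, Tamoxifen first. Its partner S100a9 gave the same order of lines, with an adjusted p of 0.072. The high line of S100a8 was thus not the high line of S100a10.

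Of 11 other annexins, 5 passed the filter and 1 of them rose. Anxa5, whose protein binds phosphatidylserine, was at 11.28 ± 0.61 with Tamoxifen and 10.91 ± 0.51 with Vehicle (SD, n = 3 each), a difference of 0.37 ± 0.06 (SE) with a limma adjusted p of 0.032. It was higher in each line, by 0.42, 0.25 and 0.43 in lines 14843, 14844 and 14846, opposite in sign to Anxa2. Anxa4 gave -0.38 ± 0.08 with an adjusted p of 0.051, Anxa7 gave -0.23 ± 0.07, and Anxa6 and Anxa11 gave -0.05 and -0.01. Anxa1, the known partner of S100A11, was dim, at 5.94 with Tamoxifen and 5.89 with Vehicle. Anxa5 also differed between lines, with an adjusted p of 0.0063, lowest in line 14844.

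Among 23 tested partners and receptors of S100 proteins and annexin A2, limma called 0 higher and 1 lower, where 2 and 2 had an unadjusted p under 0.05. Stim1, the calcium sensor of the endoplasmic reticulum that opens store-operated channels, fell by 0.45 ± 0.07 (SE), to 9.74 ± 0.12 with Tamoxifen against 10.18 ± 0.20 with Vehicle (SD, n = 3 each), with a limma adjusted p of 0.025. Its channel gene Orai1 gave 0.28 ± 0.07 with an adjusted p of 0.084. Between lines 1 partner was called, Ahnak, the scaffold that binds the complex of S100A10 and annexin A2. Ahnak was at 9.15 with Tamoxifen and 8.83 with Vehicle in line 14846, against 8.14 and 8.31 in line 14843 and 8.25 and 8.03 in line 14844, with an adjusted p of 0.045 for the lines. Its difference of 0.81 ± 0.11 for line 14846 shared the direction of S100a10. The call ended without the filter on dim genes, with log2(intensity + 32), without line 14844, without line 14846 and without the treatment term. The receptor Tlr4 and the plasminogen system genes Plat, Plau and Plg were below the filter. Among receptors past it, Ager, which encodes RAGE, gave -0.04 ± 0.06 between treatments, the urokinase receptor gene Plaur 0.00 ± 0.06 and Bsg, a bright gene for basigin, -0.01 ± 0.05.

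In a list of 25 genes for calmodulin, other calcium sensors and calcium entry, 21 were tested, and limma called 0 higher and 2 lower, where 1 and 5 had an unadjusted p under 0.05. Orai3, a store-operated channel subunit, fell by 0.72 ± 0.12 (SE), with values of 9.23, 9.51 and 9.37 in Tamoxifen arrays of lines 14843, 14844 and 14846, and of 9.77, 10.06 and 10.45 in Vehicle arrays. Its limma adjusted p was 0.031. Pdcd6, a penta-EF-hand calcium sensor, fell by 0.29 ± 0.05 with an adjusted p of 0.037, a call that ended also without line 14843 or line 14846. The widest difference in the list, -1.20 ± 0.26 for the calpain subunit Capn2, had an adjusted p of 0.061, since line 14846 gave -0.38 against -1.71 and -1.50 in lines 14843 and 14844. Between lines Ppp3ca, a catalytic subunit of calcineurin, and Nfatc2, a factor that calcineurin activates, were called. Line 14846 exceeded the mean of the others by 0.55 ± 0.08 and 0.92 ± 0.13, with limma adjusted p-values for the lines of 0.021 and 0.044. Without line 14843 the Ppp3ca difference was 0.26 and its call was lost, and without line 14844 the difference was 0.84. The list's medians were -0.02 for treatment and 0.10 for line 14846, against 0.03 and 0.00 over all genes tested.

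The list closest to the S100 genes by T cell biology held effector and migration genes, 20 of 22 tested. For treatment limma called 1 higher and 2 lower, where 6 and 5 had an unadjusted p under 0.05. Tmsb10, an actin-binding thymosin, rose by 0.57 ± 0.08 (SE), with a limma adjusted p of 0.024, while the integrin subunit Itgb1 fell by 0.43 ± 0.07, with an adjusted p of 0.027, and the membrane protein Emp3 by 0.37 ± 0.06, with an adjusted p of 0.030. Lgals1, galectin-1, gave -0.61 ± 0.12 with an adjusted p of 0.053. Over the lists, the 7 genes called between treatments all lost their calls without line 14844, at adjusted p-values of 0.093 to 0.20, and without line as a block, at 0.087 to 0.67. Anxa5, Emp3 and Pdcd6 also lost theirs without line 14843, Anxa5, Itgb1 and Pdcd6 without line 14846, and Emp3 and Pdcd6 with arrays centred on the median of the tested genes.

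Between leukemias 4 of these 20 genes were called, and 12 had an unadjusted p under 0.05. S1pr1, the receptor that guides T cells out of lymphoid organs, was at 9.77 with Tamoxifen and 9.66 with Vehicle in line 14846, against 7.90 and 7.66 in line 14843 and 8.21 and 8.02 in line 14844. Line 14846 exceeded the mean of the others by 1.77 ± 0.06 (SE) for S1pr1, by 1.21 ± 0.13 for the integrin subunit Itga4, by 1.13 ± 0.13 for Lgals1 and by 0.28 ± 0.06 for the actin-binding Tagln2, with limma adjusted p-values for the lines of 7.9e-04, 0.022, 0.026 and 0.047. All 4 were higher in line 14846, like S100a10, although Tagln2 was nearly as high in line 14844. Of the 20, 16 had a line 14846 value above the mean of the others, with a median of 0.25, against 50.1% and a median of 0.00 over all genes tested. The same count was 17 of 21 in the calcium list, 4 of 5 among the other annexins, 8 of 23 among the partners and 2 of 6 among the other S100 genes. Il2rb and Il7r, cytokine receptor subunits, gave 1.16 and 0.92 without a call, and Cd44 gave 0.21. Itgb1 ran the other way, at -0.49 ± 0.07 with an adjusted p of 0.057. Of the 9 related genes called between lines, 7 lost the call without line 14846, 6 without line 14844, 2 without line 14843 and 7 without the treatment term. S1pr1 lost it only without line 14846. Tagln2 lost it under 6 and Nfatc2 under 5 of 12 other settings, for both also without the filter on dim genes.

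**Figure D4:**
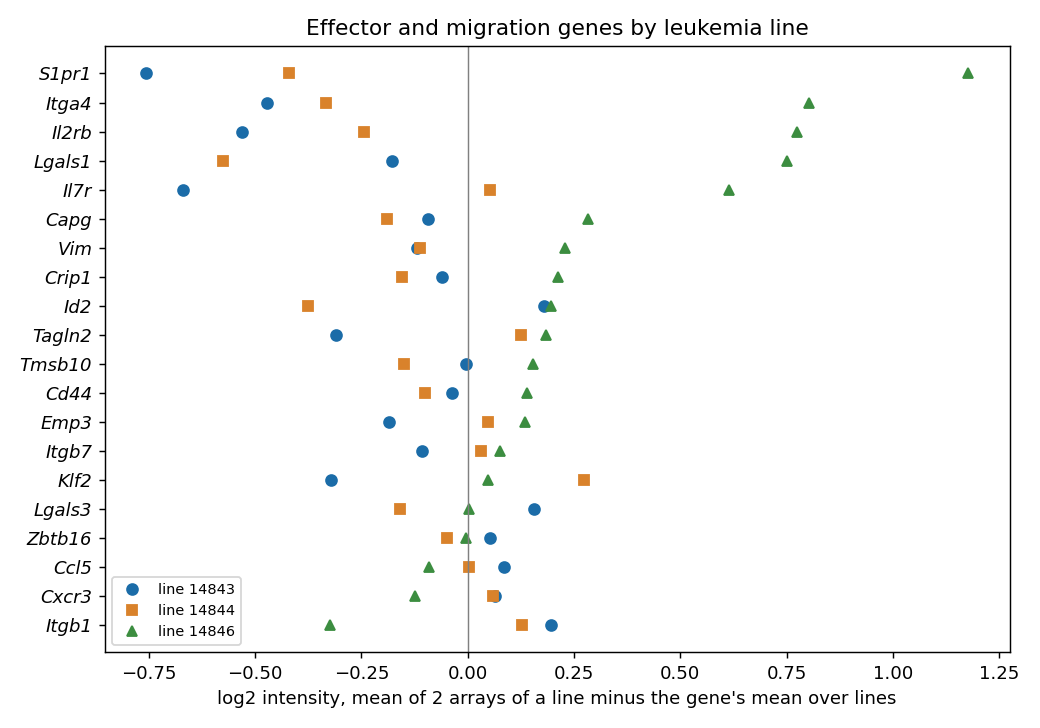
Mean log2 intensity of each leukemia line over its 2 arrays, minus the gene's mean over the lines (horizontal axis), for the 20 tested effector and migration genes. The green triangles of line 14846 lie farthest right for S1pr1, Itga4, Il2rb, Lgals1 and Il7r and farthest left for Itgb1.

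Markers of cells that might pass a sort on GFP were set beside these results, since myeloid and NK cells express S100a10 and S100a11. Of 35 tested markers of other cell types limma called 0 between treatments, 3 having an unadjusted p under 0.05 as higher and 1 as lower. Between lines it called 8, where the share called over all tested genes was 3.11%. An unadjusted p under 0.05 between lines was seen for 18 of the 35, or 51.4%, against 19.3% over all tested genes. These included 7 of 7 neutrophil and 5 of 6 monocyte and macrophage markers, and 0 of 3 in each of the B cell and erythroid lists. The 3 higher with Tamoxifen were monocyte and macrophage markers, Lyz2 at 0.24 ± 0.08 (SE), Itgam at 0.29 ± 0.09 and Ctss at 0.63 ± 0.22. That was 50% of the 6 tested in that list, against 10.5% over all tested genes. The others of the 6, Cybb, Cd68 and Ly86, gave 0.15, -0.09 and -0.75. The 1 lower was Bst2 of the dendritic cell list, at -0.26. T lineage markers were all above the filter, 14 of 14, with summed intensities of 68718 to 74643 in Tamoxifen arrays and 71144 to 83979 in Vehicle arrays, and limma called 0 of them between treatments or between lines. At an unadjusted p under 0.05, 0 were higher and 3 lower between treatments, namely Rag2 at -0.75 ± 0.16 (SE, adjusted p 0.057), Ptcra at -0.27 and Cd2 at -0.19, and 5 differed between lines. Those 5, Cd4, Cd5, Ptcra, Dntt and Bcl11b, gave line 14846 differences of -0.74, -0.21, -0.32, -0.21 and -0.20. The median over the T lineage list was -0.18, with Cd8a and Cd8b1 at 0.01 and 0.02. Of 12 monocyte and macrophage markers, 6 were below the filter, among them the defining Csf1r, Adgre1 and Mpeg1. Csf1r and Adgre1 in line 14846 were at 6.35 and 6.12 with Tamoxifen and at 6.30 and 6.01 with Vehicle. The monocyte list summed to 2957 with Tamoxifen and 4677 with Vehicle in line 14846, and to 2554 to 2663 with Tamoxifen and 2224 to 2237 with Vehicle in the other lines. That sum rested on Ly86, at 8.90 with Tamoxifen and 11.20 with Vehicle in line 14846 and at 6.18 to 6.34 elsewhere. The call of Ly86 between lines was lost under 6 of the 11 other settings that tested it. Ctss, the gene for the protease cathepsin S, was at 9.03 with Tamoxifen and 9.04 with Vehicle in line 14846, against 8.69 and 7.44 in line 14843 and 8.93 and 8.29 in line 14844. Its line 14846 difference was 0.70 ± 0.24 (SE) with an adjusted p of 0.23 for the lines, Cd68 gave 0.21 ± 0.09, and Mpeg1, below the filter, 0.22 ± 0.06. The other monocyte markers called between lines, Lyz2 and Itgam, were highest in lines 14844 and 14843.

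Of the 4 tested NK and cytotoxic markers, limma called 2 between lines, Klrb1c and Nkg7, both highest in line 14846. The Nkg7 call was lost under 5 of the 11 other settings that tested it. The Klrb1c call was lost under 1 of 12, without line 14846. Klrb1c, which encodes NK1.1, was at 10.29 with Tamoxifen and 10.45 with Vehicle in line 14846, against 7.48 and 6.60 in line 14843 and 7.90 and 7.37 in line 14844, and the granule gene Nkg7 was higher by 1.51 ± 0.19 (SE). The other tested members, the granule genes Gzma and Prf1, gave 0.20 ± 0.16 and 0.04 ± 0.13, with adjusted p-values for the lines of 0.41 and 0.46. Of the 8 markers of that list 4 were below the filter, namely Ncr1, Klrd1, Gzmb and Eomes, and the list summed to 8983 with Tamoxifen and 9411 with Vehicle in line 14846, against 7607 to 7616 and 5155 to 7701 in the other lines. The part of NK, cytotoxic, monocyte or macrophage cells in the S100a10 and S100a11 levels was not tested. Neutrophil markers had their highest sums in line 14844, at 3365 with Tamoxifen and 2528 with Vehicle, against 1577 to 1665 and 1532 to 1742 in the other lines. Sums for dendritic cell markers lay at 1281 to 1318 with Tamoxifen and 1364 to 1393 with Vehicle, for B cell markers at 839.7 to 907.9 and 767.6 to 1241, for erythroid markers at 593.8 to 649.6 and 599.7 to 614.5, and for stroma and endothelium at 7515 to 11271 and 8345 to 9229. Most of each stroma sum came from Pdgfrb, at 11.93 to 12.92 log2 intensity. Such sums follow the brightest genes of a list and do not measure numbers of cells.

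The genes most like S100a10 over the 6 arrays were found by the root mean square difference between gene-centred log2 values. They were Gdpd3, a lysophospholipase D enzyme, at 0.39, the adhesion receptor gene Adgrg7 at 0.49, the kinase gene Pim2 at 0.57, Cd93, a lectin-like surface protein, at 0.57 and Cpsf4l at 0.58. Gdpd3 was at 11.46 with Tamoxifen and 11.52 with Vehicle in line 14846, against 7.71 and 8.60 in line 14843 and 6.92 and 6.64 in line 14844, and thus shared with S100a10 the lower value with Tamoxifen in line 14843. S100a11 lay farther from S100a10, at 1.02, because its range over the arrays was 1.91 log2 units against 4.10. Anxa2 lay at 1.76, a distance close to that of the nearly constant S100a16 at 1.72.

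For S100a1 the nearest pattern was that of Igfbp4, an insulin-like growth factor binding protein, at a distance of 0.12, followed by Kyat3, a kynurenine aminotransferase, at 0.19, Milr1, a mast cell immunoglobulin-like receptor, at 0.23, Il17rd at 0.25 and Itih5 at 0.25. Igfbp4 was at 8.67, 8.69 and 8.02 in Tamoxifen arrays of lines 14843, 14844 and 14846, and at 7.58, 7.84 and 7.78 in Vehicle arrays, with its smallest difference in line 14846 as for S100a1. Of the 5, Kyat3 was called changed between treatments, at 0.61 ± 0.06 (SE) with a limma adjusted p of 0.0089, a call lost without line 14844 and without line as a block. The 5 were picked for likeness to S100a1 in these same arrays, so a call among them supports nothing further. Kyat3 also differed between lines by limma's moderated F test, with an adjusted p of 0.037, where S100a1 had 0.31. That call was lost without line 14844, without line 14846 and without the treatment term.

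**Figure D5:**
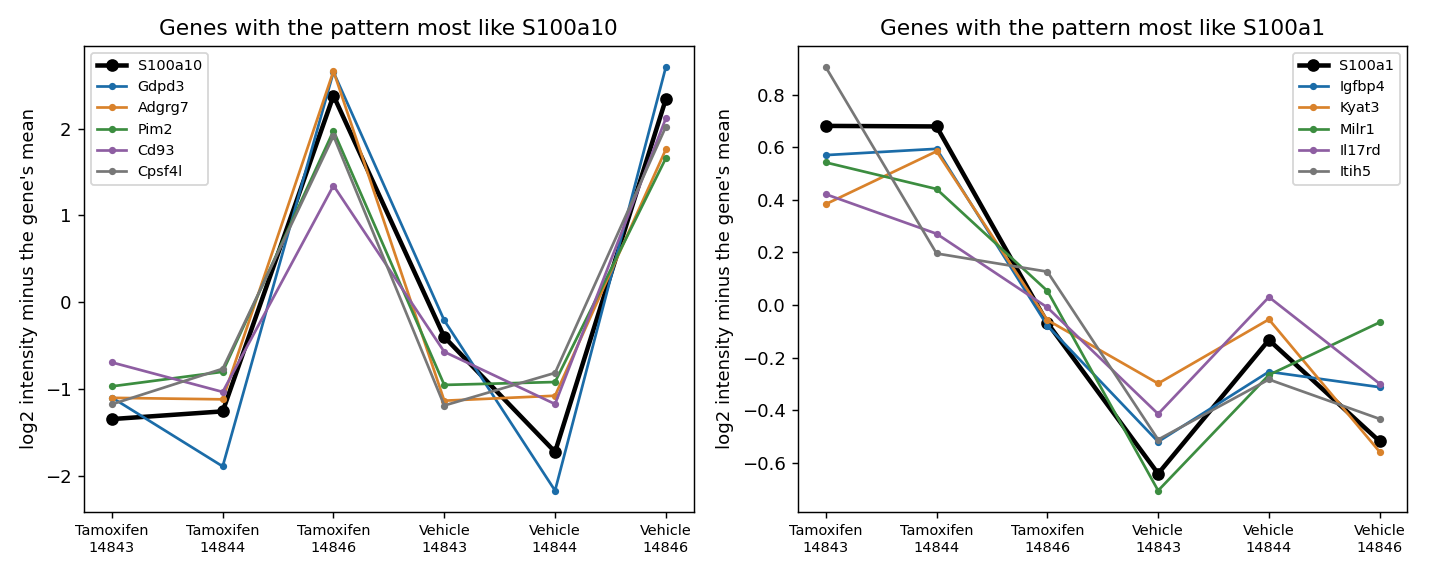
Log2 intensity minus the gene's own mean (vertical axis) in each of the 6 arrays for S100a10 (left) and S100a1 (right), in black, with the 5 tested genes of the most similar pattern in colour. The left genes peak in both arrays of line 14846, and the right genes are higher in the Tamoxifen arrays of lines 14843 and 14844.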

How the data were processed

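The authors deposited 1 linear intensity per probe set and array, and the submitters' processing notes name Affymetrix Expression Console 1.1 with RMA. RMA equalises the intensity distributions of the arrays, so differences in overall signal are lost. The genome build is not given in the sources used here. Of 35556 probe sets, 21789 had 1 gene symbol in the platform annotation, 1621 had several and 12146 were unnamed here, and only those with 1 symbol were used. Symbols were checked by Entrez identifier for 21698, and 0 changed.

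From the deposited intensities the log2 was taken, the brightest probe set per gene was kept (19938 genes), and genes with a mean at or above the 30th percentile, 6.70, were tested (13956). limma 3.58.1 in R 4.3.3 was fitted with line and treatment as terms (lmFit, eBayes, two-sided, Benjamini-Hochberg over all tested genes, threshold 0.05), with 2 residual and 3.47 prior degrees of freedom. Lines were compared by limma's moderated F test. Line is a block because, by the series' design text, each leukemia was split between both treatments. Deviations from group means correlated at 0.637 to 0.682 within lines. Members, gene lists, markers and motifs were chosen with earlier results of these data known. All members and Zfx were named. Related lists gave up to 4 called genes per comparison, or else the smallest p-values, and 5 nearest patterns were named for S100a10 and S100a1. Other list genes were named after their values were seen. Array number limits precision. In both comparisons the error behind the p-values is the variation of treatment differences over the 3 lines, moderated over all tested genes. No line had replicate arrays within a treatment.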

Additional observations from a re-analysis of the deposited data

Results flagged for a closer look

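The treatment difference did not have the same sign in every leukemia for 3 of the 6 tested genes. For S100a10, Tamoxifen minus Vehicle was -0.95 in line 14843, 0.47 in line 14844 and 0.041 in line 14846. For S100a11 it was 0.16, 0.37 and -0.076 in the same order of lines, and for S100a16 it was -0.014, -0.024 and 0.018. With 1 array per line and treatment, whether the treatment difference varied between lines was not tested. Groups of 3 arrays were too small for a check of single outlying arrays.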

How the results depend on the processing

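Counts of genes changed between treatments, 870 as reported, were 70 to 669 when each line was left out in turn, lowest without line 14844. With no replicate block, the treatment term alone, the count was 295 and 0 members were called, against 1 with line as a block. The S100a1 difference kept its sign under all 12 other settings, from 0.63 without line 14843 to 1.07 without line 14846, and its call under 9 of them. The call was lost, leaving 0 members, without line 14844, with no replicate block and with no filter on dim genes, at limma adjusted p-values of 0.19, 0.14 and 0.059, where p-values over the settings ranged from 0.017 to 0.19. Without the filter more genes were tested. Elsewhere the cause was not tested. Genes differing between lines, 434 as reported, numbered 193 to 455 when a line was left out, 106 without the treatment term and 674 after arrays were centred on the median of the tested genes, an alternative chosen after seeing the data, as was centring on all probe sets. The 2 members called between lines kept their calls under 11 of 12 settings, and 0 were called without line 14846. The line 14846 difference of S100a10 lay between 3.23 and 3.85 under the settings that could give it. It cannot be computed without line 14846. Anxa2 passed the treatment threshold under none of the settings, at adjusted p-values of 0.053 to 0.26. Its line 14846 difference was -0.29 without line 14843 and 0.23 without line 14844. No called member reversed its direction. For S100a16 the sign of the treatment difference changed with the centring of arrays, between -0.03 and 0.05. Arrays have no read depth. S100a4 and S100a6 were tested only with no filter on dim genes, at adjusted p-values of 0.73 and 0.74 for treatment and 0.40 and 0.84 for the lines.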

Other observations

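Them4, an acyl-CoA thioesterase gene and the second tested gene beyond S100a10 in chromosome order, was called higher with Tamoxifen. It was at 8.53, 8.51 and 8.46 log2 intensity in Tamoxifen arrays of lines 14843, 14844 and 14846, and at 8.04, 7.88 and 8.09 in Vehicle arrays. Tamoxifen exceeded Vehicle by 0.50 ± 0.07 (SE), and the adjusted p from limma was 0.019. The call was lost without line 14844, at an adjusted p of 0.12. S100a10, its neighbour, had no such difference. Them4 was chosen for mention after its values were seen.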
